A study of Mus musculus with 2 samples.

Results

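Microglia and macrophages that take up damaged cells, myelin or lipid switch on a shared set of genes, often called the disease-associated microglia programme, in which Gpnmb and Spp1 are among the most strongly induced. Its products act in 3 places: outside the cell as secreted signals, in the lysosome where engulfed material is broken down, and in the handling of fatty acids. The 10 genes described here, of 32285 genes listed, were Gpnmb, Spp1, Igf1, Fabp5, Lgals3, Cd63, Cd9, Lpl, Cst7 and Itgax, found by symbol in both libraries. They were chosen by their levels and library ratios in these same cells, already in view, so their levels and ratios are descriptions and carry no test. All 10 had UMIs (unique molecular identifiers, each counting 1 captured RNA molecule) in kept cells of both libraries.

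The series compared microglia-like cells, by label, from the central nervous system (CNS) of transplanted mice in 1 single-cell library of genotype Cx3cr1-/+ (heterozygous) and 1 of genotype Cx3cr1+/+ (wild type). Cx3cr1 encodes the fractalkine receptor, through which microglia sense a chemokine made by neurons. In both groups the recipients were CD45.1 mice conditioned with busulfan, a chemotherapy agent that depletes marrow stem cells, at 25 mg/kg in 4 doses. They then received, at a 1:1 donor to recipient ratio, an injection into the vein of GFP+ and GFP- cells from the lineage-negative pool of Cx3cr1-/+ mice. The labels give that donor genotype for both libraries, and they give no age, sex, time after transplantation or number of animals, nor whether a cell came from the donor or from the host. Each genotype had 1 library, so there is no replicate and no test across samples. Each ratio compares these libraries only, and intervals (95%) cover counting error only.

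The heterozygous library held 1489 kept cells with a median of 6880 UMIs and the wild-type library 1949 kept cells with a median of 6637 UMIs. Clustering without the 10 genes gave 19 clusters, of which 7 were named as mononuclear phagocytes from fixed markers and held 699 heterozygous and 1028 wild-type cells. The label "microglia-like" covered only some of these cells, since monocyte-like, dendritic cell-like, neutrophil-like and other clusters were also present. Cx3cr1 itself stood at 929 counts per 1000000 UMIs (CPM) in heterozygous and 908 CPM in wild-type phagocytes. There were 339 cell barcodes listed in both libraries, which made up 0.524% of the C1q macrophage-like cells described below. Nearly all marked heterozygous phagocytes carried Xist and no Y-linked transcript (526 cells, against 7 with only Y-linked UMIs), while wild-type phagocytes were mixed (121 cells with only Xist and 410 with only Y-linked UMIs), so sex mark and genotype label cannot be told apart for most cells.

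The promoters of Gpnmb and Spp1, the genes on which the results turn, are shown because both genes were highest in the same cells. Each runs from 250 bases before to 50 after the start site (RefSeq, GRCm38.p6, plus strand) and is written 5′ to 3′. Capitals mark matches to AACCACA (a core motif of Runx factors, at base 75 of the Gpnmb and base 122 of the Spp1 promoter), TGANTCA (AP-1, Gpnmb) and AGGAAGT (PU.1 and other Ets factors, Spp1).
Gpnmb chr6:49036268-49036567: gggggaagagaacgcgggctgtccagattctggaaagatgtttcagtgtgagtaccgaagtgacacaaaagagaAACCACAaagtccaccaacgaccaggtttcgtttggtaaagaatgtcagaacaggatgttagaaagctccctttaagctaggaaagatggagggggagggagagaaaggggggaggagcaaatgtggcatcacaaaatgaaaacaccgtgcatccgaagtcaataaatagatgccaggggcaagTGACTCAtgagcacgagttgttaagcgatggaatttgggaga
Spp1 chr5:104434861-104435160: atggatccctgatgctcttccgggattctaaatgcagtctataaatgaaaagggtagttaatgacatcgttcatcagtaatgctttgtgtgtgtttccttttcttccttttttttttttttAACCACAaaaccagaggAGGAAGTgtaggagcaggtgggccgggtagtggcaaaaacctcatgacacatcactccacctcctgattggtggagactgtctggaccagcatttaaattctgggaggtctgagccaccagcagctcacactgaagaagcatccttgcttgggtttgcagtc
Promoters of 8 of the 10 genes were in the table, Fabp5 and Lpl being the others. On both strands, TGANTCA was found in 4 of the 8 (Gpnmb, Igf1, Cst7 and Itgax) and in 7.81% of all 32851 promoters. AACCACA was found in 2 of the 8 (Gpnmb and Spp1), against 5.27% of all, and AGGAAGT in 2 of the 8 (Spp1 and Cst7), against 9.35%. The E-box CACGTG and the related TCATGTG, which the Mitf and Tfe factors of lysosomal genes bind, were found in 0 of the 8, against 7.15% and 3.77% of all promoters. A match is a description, not a binding site or a cause, and no match speaks only of these letters in these windows. The motifs were chosen after the sequences had been read.

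The 10 genes did not form a single pattern across cell classes. Gpnmb and Spp1 were highest in the C1q macrophage-like cluster, led by Apoe and Ms4a7 (145 heterozygous and 46 wild-type cells). In the heterozygous library Igf1 was also highest there, as was Fabp5 among the phagocyte classes, while in the wild-type library Igf1 was highest in border-associated macrophage-like cells. Lgals3 was highest in classical monocyte-like cells, Cd9 in microglia-like cells, Itgax in patrolling monocyte-like cells, and Cst7 in microglia-like, natural killer cell-like and mast cell or basophil-like cells. A heat map of the levels shows these separate peaks.

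**Figure D1:**
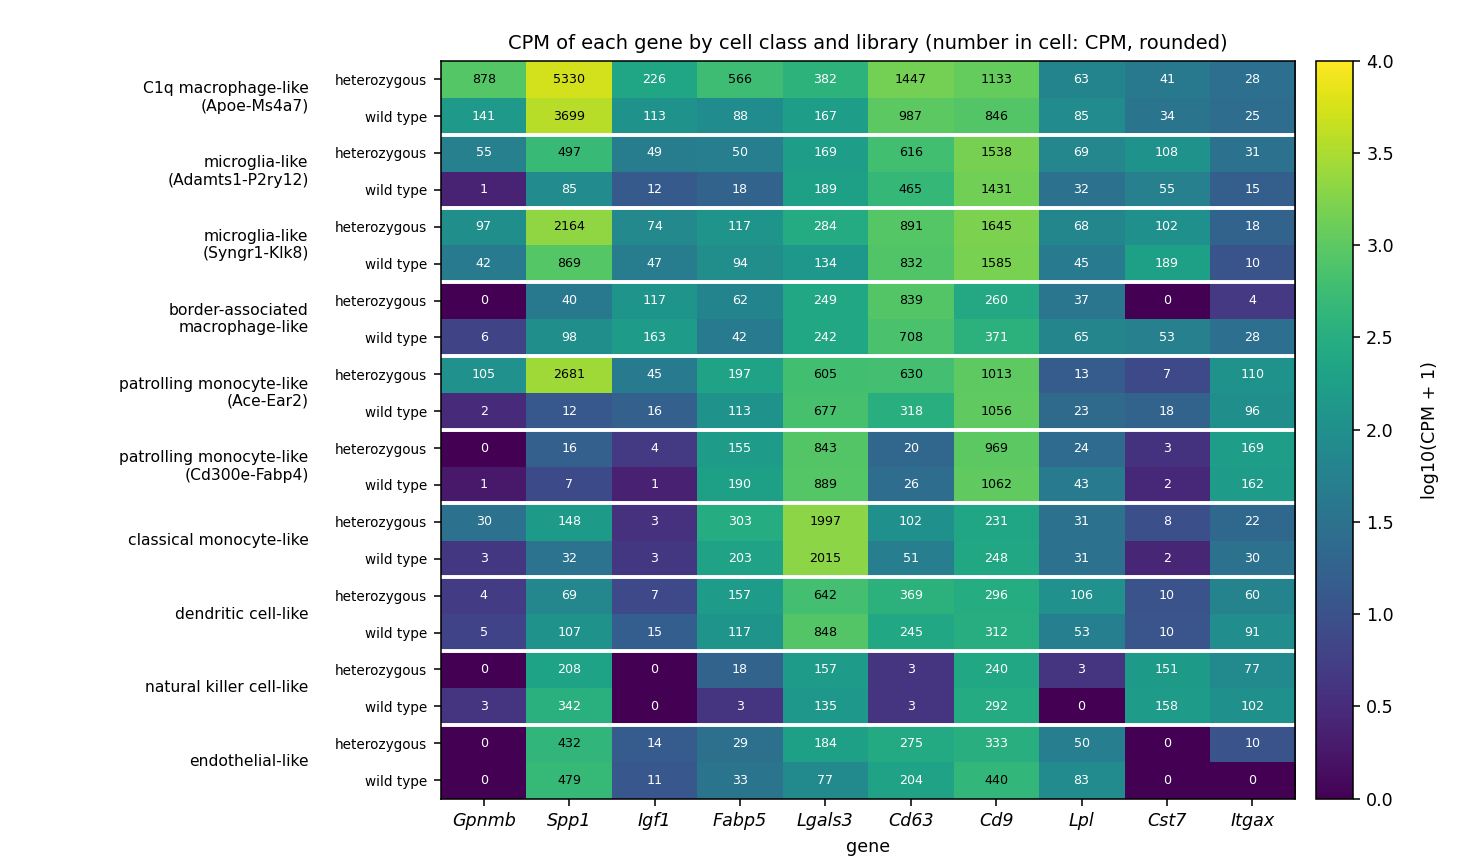
Level of each of the 10 genes (columns) in 10 cell classes (row pairs, heterozygous above wild type), as CPM over the summed UMIs of the class; colour gives log10(CPM + 1) and the number the CPM. Gpnmb and Spp1 peak in the C1q macrophage-like row pair (878 CPM heterozygous, 141 CPM wild type for Gpnmb), while Lgals3 peaks in classical monocyte-like cells (1997 CPM heterozygous, 2015 CPM wild type).

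Among the secreted and membrane proteins, Gpnmb, a transmembrane glycoprotein of lysosomes and phagosomes (GRCm38 chr6:49036546-49070929), had 1181 UMIs in heterozygous and 50 UMIs in wild-type C1q macrophage-like cells. This came to 878 CPM (829 to 930) in heterozygous cells, against 141 CPM (105 to 186) in wild-type cells. The Syngr1-Klk8 microglia-like cells held 97 CPM in the heterozygous library, against 41.8 CPM in the wild-type one. The Ace-Ear2 patrolling monocyte-like cells, a cluster that also carried C1qa at 3182 CPM, held 105 CPM (47 UMIs in 4 cells) in the heterozygous library, against 1.95 CPM (1 UMI) in the wild-type one. In Cd300e-Fabp4 patrolling monocyte-like cells Gpnmb had 0 UMIs in 163 heterozygous and 2 UMIs in 376 wild-type cells. Spp1 (osteopontin, a secreted phosphoprotein that binds integrins and Cd44; chr5:104435118-104441050) stood at 5330 CPM in heterozygous and 3699 CPM in wild-type C1q macrophage-like cells. Its level was 2164 CPM (heterozygous) and 869 CPM (wild type) in the Syngr1-Klk8 microglia-like cells and 497 CPM (heterozygous) and 85.2 CPM (wild type) in the Adamts1-P2ry12 microglia-like cells. Igf1, a secreted growth factor (chr10:87858265-87937042), was at 226 CPM in heterozygous and 113 CPM in wild-type C1q macrophage-like cells. Border-associated macrophage-like cells held Igf1 at 117 CPM (heterozygous) and 163 CPM (wild type) with Gpnmb at 0 CPM (heterozygous) and 5.62 CPM (wild type), so this class held Igf1 with little or no Gpnmb.

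Among the lipid genes, Fabp5, a carrier of fatty acids inside cells (chr3:10012548-10016607), was at 566 CPM in heterozygous and 87.7 CPM in wild-type C1q macrophage-like cells, and was also held by classical monocyte-like cells at 303 CPM (heterozygous) and 203 CPM (wild type). Lpl, the lipase that frees fatty acids from lipoproteins (chr8:68880491-68907448), was at 106 CPM in heterozygous dendritic cell-like cells, against 52.7 CPM in wild-type ones. In C1q macrophage-like cells it stood at 63.2 CPM (heterozygous, 85 UMIs) and 84.8 CPM (wild type, 30 UMIs). The intervals of these 2 values, 50.5 to 78.2 and 57.2 to 121 CPM, overlapped.

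Among the genes of the lysosome, cell surface and adhesion, Cd63, a tetraspanin of late endosomes and lysosomes (chr10:128900989-128912822), was at 1447 CPM in heterozygous and 987 CPM in wild-type C1q macrophage-like cells, and it was low in Cd300e-Fabp4 patrolling monocyte-like cells (19.8 CPM heterozygous, 26.2 CPM wild type). Cd9, a tetraspanin of the plasma membrane (chr6:125460266-125494791), was at 1538 CPM (heterozygous) and 1431 CPM (wild type) in the Adamts1-P2ry12 and at 1645 CPM (heterozygous) and 1585 CPM (wild type) in the Syngr1-Klk8 microglia-like cells. Lgals3 (galectin-3, a lectin that binds damaged lysosomes; chr14:47367751-47386160) reached 1997 CPM (heterozygous) and 2015 CPM (wild type) in classical monocyte-like cells, over 5 times its level in either library's C1q macrophage-like cells (382 CPM heterozygous, 167 CPM wild type). Cst7 (cystatin F, an inhibitor of lysosomal cathepsins; chr2:150570415-150578944) was at 108 CPM (heterozygous) and 55.1 CPM (wild type) in the Adamts1-P2ry12 microglia-like cells but also at 151 CPM (heterozygous) and 158 CPM (wild type) in natural killer cell-like cells. Itgax (CD11c, the integrin alpha chain used to mark dendritic cells; chr7:128129547-128150657) was at 169 CPM (heterozygous) and 162 CPM (wild type) in Cd300e-Fabp4 patrolling monocyte-like cells and at 28.3 CPM (heterozygous) and 25.5 CPM (wild type) in C1q macrophage-like cells. Gm42793 overlaps Spp1 on the same strand. Genes on the opposite strand overlap Igf1 (Igf1os, 3 UMIs) and Cd9 (Gm28809, 174 UMIs, and Gm26728, 48 UMIs), against 981 and 28138 UMIs for Igf1 and Cd9. Fabp5, Cd63 and Cd9 have processed pseudogene copies. Gm42793 and these copies were not among the genes listed, so no UMIs were counted under their names. How far the overlaps and copies alter the counts was not tested, which leaves the counts of these genes less certain.

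Summed over all mononuclear phagocytes, 5 of the 10 genes were more than 1.5-fold higher in the heterozygous library (Gpnmb, Spp1, Igf1, Fabp5 and Cd63) and 0 were that much lower. Of 5540 genes measured in these cells, 2.36% were above and 0.812% below the same fold. Because the genes were chosen with this contrast in view, nothing is read from that count. Gpnmb stood at 223 CPM in heterozygous and 11.6 CPM in wild-type phagocytes (log2 ratio 4.26, 3.95 to 4.59). Spp1 stood at 1643 CPM (heterozygous) and 268 CPM (wild type), a log2 ratio of 2.61. Igf1 stood at 73.5 CPM (heterozygous) and 20.9 CPM (wild type), a log2 ratio of 1.81. Cd63, also a gene of the lysosome, stood at 606 CPM (heterozygous) and 268 CPM (wild type), a log2 ratio of 1.18, and Fabp5 at 255 CPM (heterozygous) and 139 CPM (wild type), a log2 ratio of 0.87. The other 5 lay within the fold, with log2 ratios of 0.38 for Cst7, 0.22 for Lpl, 0.13 for Cd9, -0.28 for Lgals3 and -0.29 for Itgax.

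The share of phagocytes in each class moved with these ratios. C1q macrophage-like cells gave 21.8% of the phagocyte UMIs in the heterozygous and 4.57% in the wild-type library, and Cd300e-Fabp4 patrolling monocyte-like cells gave 17.2% in the heterozygous and 28.6% in the wild-type library. With both libraries set to the same class shares, the log2 ratio was 2.66 for Gpnmb (148 CPM heterozygous, 23.5 CPM wild type), 1.02 for Spp1 (1185 CPM heterozygous, 583 CPM wild type), 0.84 for Igf1 and 0.80 for Fabp5. Cd63 came to 0.46, inside the fold, and the other 5 genes to between -0.02 and 0.13. Leaving the C1q macrophage-like cluster out gave 2.91 for Gpnmb, 2.57 for Spp1, 0.91 for Igf1, 0.67 for Cd63 and 0.25 for Fabp5. That Spp1 value leans on few cells. Of 10144 Spp1 UMIs in heterozygous phagocytes, 7166 lay in the cluster left out and 1085 in 1 Ace-Ear2 patrolling monocyte-like cell. In phagocytes with Xist and no Y-linked UMI, of which the wild-type library held 121, Gpnmb was at 3.65 and Spp1 at 3.77, but Cd63 was at -0.064 and Igf1 at 0.49.

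**Figure D2:**
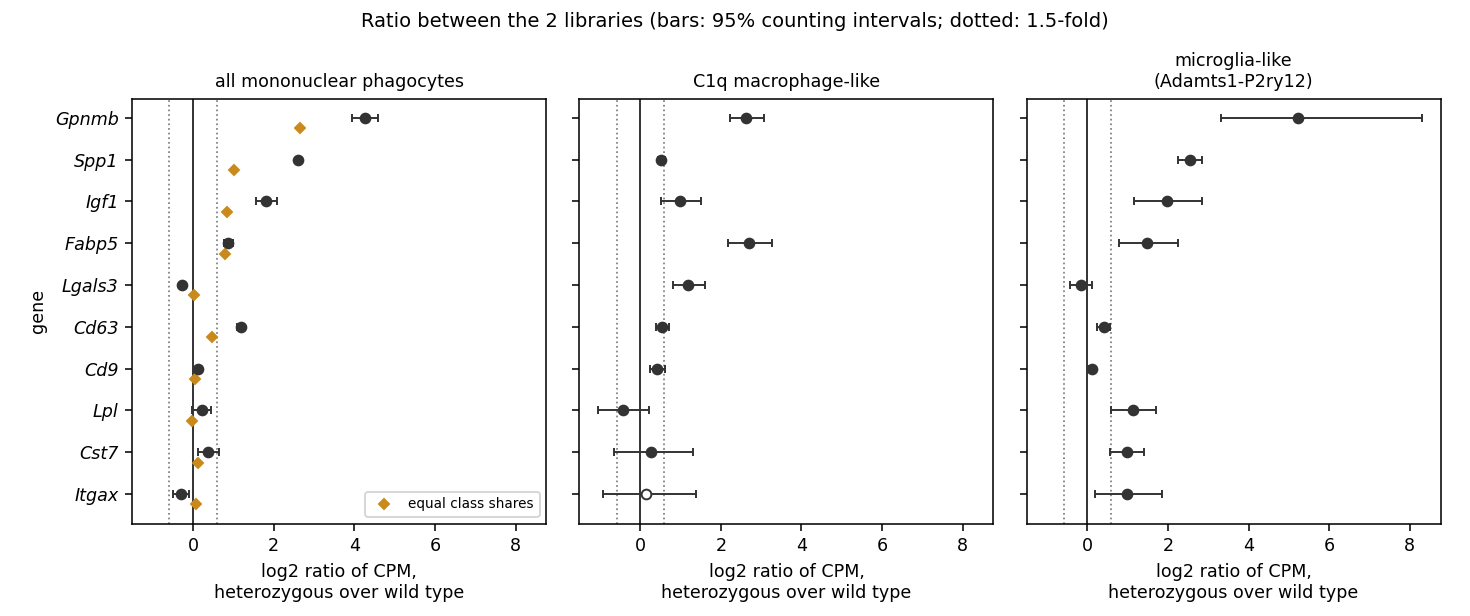
Log2 ratio of CPM, heterozygous over wild type, for each of the 10 genes in all mononuclear phagocytes, in C1q macrophage-like cells and in Adamts1-P2ry12 microglia-like cells; bars are 95% counting intervals, dotted lines mark 1.5-fold, diamonds the ratio at equal class shares, and the open circle a gene under the count minimum. Gpnmb lies to the right of the 1.5-fold line in all 3 panels (4.26, 2.64 and 5.22), and Cd9 within it in all 3.

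Within the C1q macrophage-like cluster, 4 of the 9 genes that met the minimum (50 UMIs over both libraries and a mean of 20 CPM) were above 1.5-fold and 0 below, against 8.51% and 6.2% of 4078 genes measured there. Those 4 were Fabp5 (log2 ratio 2.69, 2.17 to 3.26), Gpnmb (2.64, 2.23 to 3.07), Lgals3 (1.19, 0.80 to 1.61) and Igf1 (1.00, 0.52 to 1.51). Spp1 (0.53), Cd63 (0.55) and Cd9 (0.42) were higher in the heterozygous library by less than the fold. Lpl was at -0.42 (-1.04 to 0.23) and Cst7 at 0.27 (-0.65 to 1.31), both with intervals that span no difference. Itgax had 38 heterozygous and 9 wild-type UMIs and did not meet the minimum. The cluster's median depth was 6938 UMIs in heterozygous and 6499 UMIs in wild-type cells. Neutrophil markers summed to 907 CPM in heterozygous and 795 CPM in wild-type cells of this cluster, with 9 of 10 markers detected in heterozygous and 10 of 10 in wild-type cells. Classical monocyte markers summed to 37.9 CPM (heterozygous) and 348 CPM (wild type) with 7 of 8 and 8 of 8 markers detected, and border-associated macrophage markers to 1444 CPM (heterozygous) and 1439 CPM (wild type), with 8 of 11 in each. Microglia markers summed to more, 7411 CPM (heterozygous) and 6538 CPM (wild type), with 10 of 10 and 9 of 10 detected. The cluster was thus not free of the markers of other classes. Their part in the ratios was not tested.

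In the Adamts1-P2ry12 microglia-like cluster, with 95 heterozygous and 120 wild-type cells, 7 of 10 genes were above 1.5-fold and 0 below, against 4.55% and 2.28% of 6020 genes. The 7 were Gpnmb, Spp1, Igf1, Fabp5, Lpl, Cst7 and Itgax. Most of these UMIs came from few cells. Of 64 heterozygous Gpnmb UMIs, 60 lay in 5 cells, and the wild-type library had 2 UMIs in 2 cells. Of 127 heterozygous Cst7 UMIs, 112 lay in 5 cells. In the shallower Syngr1-Klk8 microglia-like cluster (115 heterozygous and 179 wild-type cells), 5 of 9 measured genes were above the fold (Gpnmb, Spp1, Igf1, Lgals3 and Lpl) and 1 below (Cst7), against 4.0% and 5.35% of 2300 genes. There, 5 cells held 95.6% of the Spp1 UMIs in the heterozygous library, against 88.3% in the wild-type one. Among monocyte-like clusters, Spp1 and Cd63 were above the fold in classical cells (2 of 7 measured, against 2.88% of 5141 genes, with 0 below, against 2.08%) and Spp1, Fabp5 and Cd63 in Ace-Ear2 patrolling cells (3 of 6, against 6.23% of 2843 genes, with 0 below, against 5.35%). In Cd300e-Fabp4 patrolling cells 0 of 6 were above (2.21% of 5150 genes) and 1, Lpl, was below (2.21%). Of 4 measured genes in border-associated macrophage-like cells, 0 were above (7.46% of 1824 genes) and 0 below (8.22%). A single cell held 1085 of the 1196 heterozygous Spp1 UMIs of the Ace-Ear2 cluster, against 6 UMIs in all wild-type cells of that cluster. Its C1q macrophage markers summed to 40129 CPM in heterozygous and 20992 CPM in wild-type cells. Its patrolling monocyte markers summed to 3210 CPM (heterozygous) and 3878 CPM (wild type). The Ace-Ear2 ratios therefore cannot be read as those of monocytes alone, and the part of macrophage transcripts in them was not tested.

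Spp1 and Gpnmb were carried by a small number of cells at very high levels. In C1q macrophage-like cells of the heterozygous library, Gpnmb was found in 49 of 145 cells (33.8%), with up to 217 UMIs in a cell, and the 5 richest cells held 49.8% of its UMIs. In the wild-type library 8 of 46 cells (17.4%) held Gpnmb, with 16, 13, 8, 4, 3, 3, 2 and 1 UMIs in these wild-type cells. Spp1 was found in 60 heterozygous cells, with up to 1032 UMIs in a cell, and in 14 wild-type cells, of which the 3 richest had 870, 336 and 72 of 1308 UMIs. Those 3 wild-type cells together held 1278 of the 1308. Without the 5 richest cells of each library, Spp1 came to 3036 CPM in heterozygous and 49.5 CPM in wild-type cells, and Gpnmb to 482 CPM (heterozygous) and 20.7 CPM (wild type). That step left out 3.45% of heterozygous cells, against 10.9% of wild-type ones, picked by the gene's own level, and 37.8% of all genes measured then lay above 1.5-fold, so nothing is read from the ratios it gives.

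**Figure D3:**
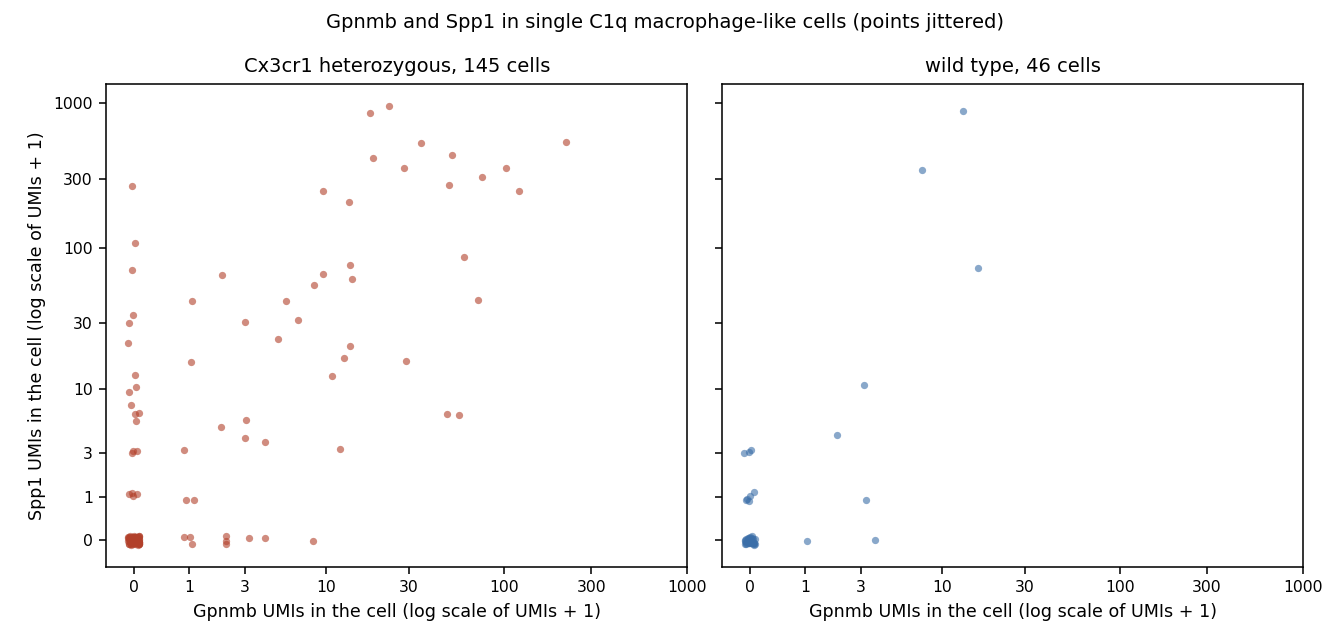
Gpnmb UMIs (horizontal) and Spp1 UMIs (vertical) in each C1q macrophage-like cell, on log scales of UMIs + 1 with points jittered, heterozygous cells left and wild-type cells right. Of the 145 heterozygous cells, 49 hold Gpnmb, and the cells with the most Gpnmb also hold Spp1; of the 46 wild-type cells, 8 hold Gpnmb and 3 carry nearly all Spp1.

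Counted over all kept cells, 31 of 1489 heterozygous cells and 6 of 1949 wild-type cells had at least 100 Spp1 UMIs, a level chosen after the data were seen. The level was not scaled for depth. Against medians of 6880 UMIs (heterozygous) and 6637 UMIs (wild type) in all kept cells, these cells had medians of 20476 and 21106.5 UMIs. Of all Spp1 UMIs, these cells held 83.4% in the heterozygous library, against 67.2% in the wild-type one, and Gpnmb was also held by 26 of the 31 heterozygous cells and by 5 of the 6 wild-type ones. Of them, 15 heterozygous and 2 wild-type cells were C1q macrophage-like, and 22 heterozygous and 3 wild-type cells were phagocytes of any class. A further 8 heterozygous and 3 wild-type cells sat in the Camp-Fcnb neutrophil-like cluster, a deep cluster (median 21512 UMIs in heterozygous and 19254 UMIs in wild-type cells) that also carried C1qa, a macrophage gene, at 2273 CPM. That cluster held 311 of 1702 heterozygous (18.3%) and 129 of 238 wild-type Gpnmb UMIs (54.2%). Scrublet called 0 doublets in either library, and whether these barcodes held more than 1 cell was not tested.

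Spp1 UMIs were also found in cells not known for the programme. Endothelial-like cells held Spp1 at 432 CPM (223 UMIs, 103 of them in 1 cell) in the heterozygous library. In the wild-type library they held it at 479 CPM (87 UMIs), above the 85.2 CPM of wild-type Adamts1-P2ry12 microglia-like cells. Of the endothelial-like cells, 34.5% had barcodes listed in both libraries. Each cell was then thinned to 2000 UMIs, and cells with fewer UMIs were left out. After this, 4 of 26 heterozygous (15.4%) and 6 of 51 wild-type (11.8%) natural killer cell-like cells held Spp1. So did 11 of 54 heterozygous and 4 of 20 wild-type endothelial-like cells. Before thinning, natural killer cell-like cells had median depths of 7349 UMIs (heterozygous) and 4811 UMIs (wild type). Of C1q macrophage-like cells, 36.4% held Spp1 in the heterozygous library, against 21.4% in the wild-type one. In Adamts1-P2ry12 microglia-like cells the share was 14.1% (heterozygous) and 6.54% (wild type), under both the natural killer cell-like and the endothelial-like share of the same library. The Spp1 UMIs of that cluster were not spread evenly, since 2 heterozygous cells, both with Gpnmb, held 320 of its 582 UMIs. In Syngr1-Klk8 microglia-like cells the heterozygous share of 18.8% lay between the natural killer cell-like and the endothelial-like share, and the wild-type share of 8.70% lay under both. The wild-type C1q macrophage-like share (9 of 42 cells) was close to the wild-type endothelial-like share (4 of 20 cells). Gpnmb was found in 0 of 26 heterozygous and 0 of 51 wild-type thinned natural killer cell-like cells. Without thinning it was in 0 of 33 heterozygous ones, which allows a share of cells with a Gpnmb UMI of up to 9.09% (3 counts of 33, counting error only), and in 1 of 59 wild-type ones. The thinned share of C1q macrophage-like cells with Gpnmb was 27.1% in the heterozygous and 9.52% in the wild-type library.

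The genes were held together in single cells of the C1q macrophage-like cluster more often than their separate shares would give. Of 140 heterozygous cells thinned to 2000 UMIs, 38 held Gpnmb, 51 held Spp1 and 30 held both, where the product of the 2 shares gives 13.8 cells. Gpnmb and Fabp5 were held together in 27 cells against a product of 9.77 (2.76 times), Gpnmb and Lgals3 in 19 against 8.96 (2.12 times), and Gpnmb and Igf1 in 22 against 11.7 (1.88 times). Spp1 and Fabp5 were together in 27 cells against 13.1, and Fabp5 and Lgals3 in 18 against 8.49. Cd63, held by 123 of the 140 cells, gave ratios near 1 with every partner (1.03 to 1.14). Pairs of other genes were not counted, so the counts that follow have no background share. Nothing particular to the 10 genes is read from them. Of 25 pairs whose product came to at least 5 cells, 0 fell below 1/1.5 of it and 11 exceeded it by over 1.5 times. In the wild-type library 0 of 7 such pairs did so, but pairs with Gpnmb and Spp1, Fabp5, Lgals3 or Igf1 did not reach that product there. Its 42 thinned cells held Gpnmb in 4, Spp1 in 9 and both in 3, against a product of 0.857. Over all phagocytes pooled, where cell classes differ in level, 13 of 35 heterozygous and 3 of 30 wild-type pairs exceeded the product by over 1.5 times. There, 3 heterozygous pairs (lowest 0.39 times the product) and 5 wild-type pairs (lowest 0.33 times) fell below 1/1.5 of it. In the other 6 phagocyte clusters Gpnmb was held by too few cells for its pairs to reach a product of 5 cells with any partner. Pairs of the other genes that reached it there exceeded the product by over 1.5 times in 0 cases. In Syngr1-Klk8 microglia-like cells these were 13 heterozygous and 14 wild-type pairs, with a median of 1.04 times the product in each library. In border-associated macrophage-like cells 1 of 3 wild-type pairs fell below 1/1.5 of it. In the Adamts1-P2ry12 microglia-like cells of the heterozygous library, 3 of the 4 cells with Gpnmb also held Spp1, as did 4 of 5 in the Syngr1-Klk8 cells.

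After thinning to 2000 UMIs, at least 6 of the 10 genes were found in 25 of 140 heterozygous (17.9%, exact interval 11.9% to 25.2%) and 2 of 42 wild-type (4.76%, 0.582% to 16.2%) C1q macrophage-like cells. Over all phagocytes 36 of 609 heterozygous cells (5.91%) did so, against 5 of 855 wild-type ones (0.585%). No thinned phagocyte held more than 8 of the 10. The 36 heterozygous thinned cells were spread over C1q macrophage-like (25), Syngr1-Klk8 microglia-like (5), Adamts1-P2ry12 microglia-like (3), classical monocyte-like (2) and Ace-Ear2 patrolling monocyte-like (1) clusters. Of the 5 wild-type cells, 3 were Syngr1-Klk8 microglia-like and 2 C1q macrophage-like.

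**Figure D4:**
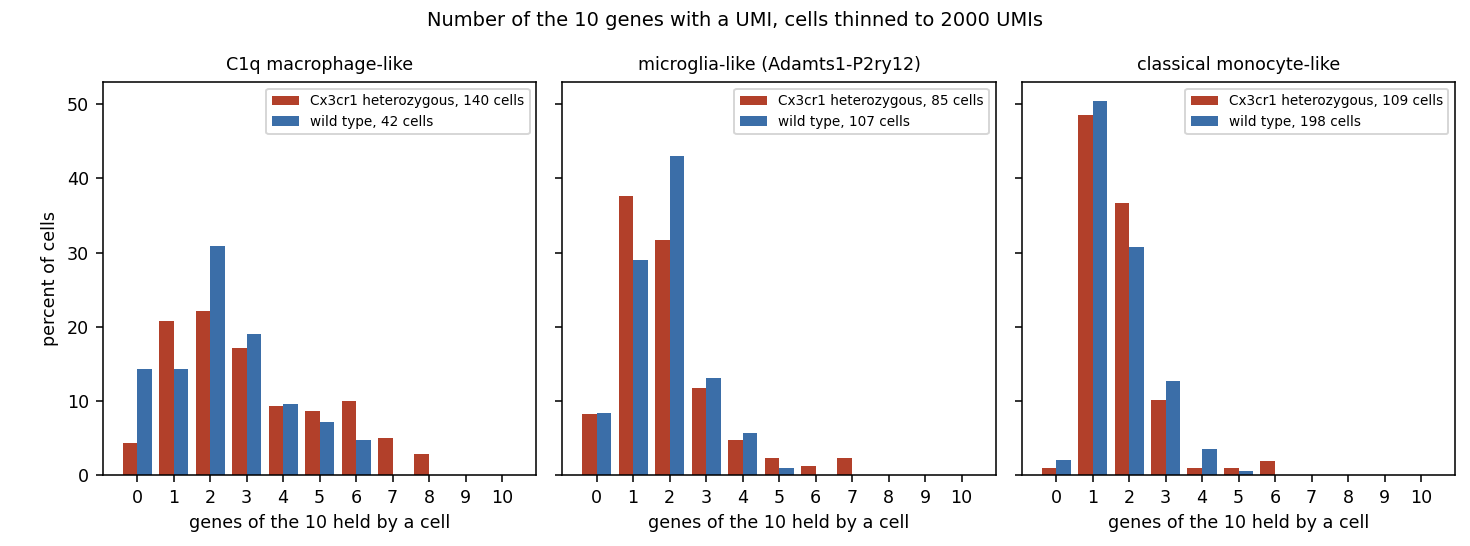
Percent of cells (bars, heterozygous left and wild type right of each pair) by the number of the 10 genes with a UMI, after thinning each cell to 2000 UMIs, in C1q macrophage-like, Adamts1-P2ry12 microglia-like and classical monocyte-like cells. The upper tail of 6 or more genes holds 17.9% of heterozygous and 4.76% of wild-type C1q macrophage-like cells.

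Within the heterozygous C1q macrophage-like cluster, the 38 thinned cells with Gpnmb were set beside the 102 without it. Spp1 was at 11026 CPM in cells with Gpnmb and 1167 CPM in cells without it (log2 ratio 3.24, 3.03 to 3.45). Fabp5 was at 1039 CPM (with Gpnmb) and 73.5 CPM (without), Lgals3 at 618 CPM (with Gpnmb) and 93.1 CPM (without), Igf1 at 461 CPM (with Gpnmb) and 132 CPM (without), Lpl at 211 CPM (with Gpnmb) and 44.1 CPM (without), Cd9 at 1908 CPM (with Gpnmb) and 721 CPM (without), and Cd63 at 1947 CPM (with Gpnmb) and 912 CPM (without). The Lpl levels rested on 16 UMIs in 6 cells with Gpnmb and 9 UMIs in 8 cells without it. Before thinning, 1 cell held 24 of the 85 Lpl UMIs of the heterozygous cluster. Cst7 was at 65.8 CPM in cells with Gpnmb (5 UMIs, 4 of 38 cells) and 19.6 CPM in cells without it (4 UMIs, 3 of 102). Its log2 interval, -0.47 to 4.08, spanned no difference. Itgax was held by 2 cells, both with Gpnmb. Before thinning, the median depth was 12405.5 UMIs in cells with and 6634 UMIs in cells without Gpnmb, and the part of depth in the split was not tested.

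Genes outside the 10 also differed along this split. Of 740 genes with at least 50 thinned UMIs, 8.11% were above 1.5-fold and 20.9% below it in cells with Gpnmb. The genes named here were the leading ones or were picked after their values were seen. Lyz2 (lysozyme) was at 32776 CPM in cells with Gpnmb and 9333 CPM in cells without it, Cstb (cystatin B) at 737 CPM (with Gpnmb) and 230 CPM (without), Pla2g7 (a secreted phospholipase that clears oxidised lipids) at 658 CPM (with Gpnmb) and 221 CPM (without), and Fth1 (ferritin heavy chain) at 24368 CPM (with Gpnmb) and 10422 CPM (without). Other leading genes were lower in cells with Gpnmb. Mrc1, a scavenger receptor of border-associated macrophages, was at 26.3 CPM in cells with Gpnmb (2 of 38 cells) and 471 CPM in cells without it (52 of 102). Pf4, another marker of those macrophages, was at 132 CPM (with Gpnmb) and 730 CPM (without), the chemokine gene Ccl12 at 105 CPM (with Gpnmb) and 951 CPM (without), and Klf2, a transcription factor, at 316 CPM (with Gpnmb) and 1588 CPM (without). The class II antigen presentation genes Cd74 (65.8 CPM with Gpnmb, 1005 CPM without) and H2-Aa (26.3 CPM with Gpnmb, 270 CPM without) differed the same way, but few cells held them (15 and 8 of the 102). C1qa was close in both, at 5961 CPM (with Gpnmb) and 6775 CPM (without), and Apoe was at 90447 CPM (with Gpnmb) and 58637 CPM (without).

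**Figure D5:**
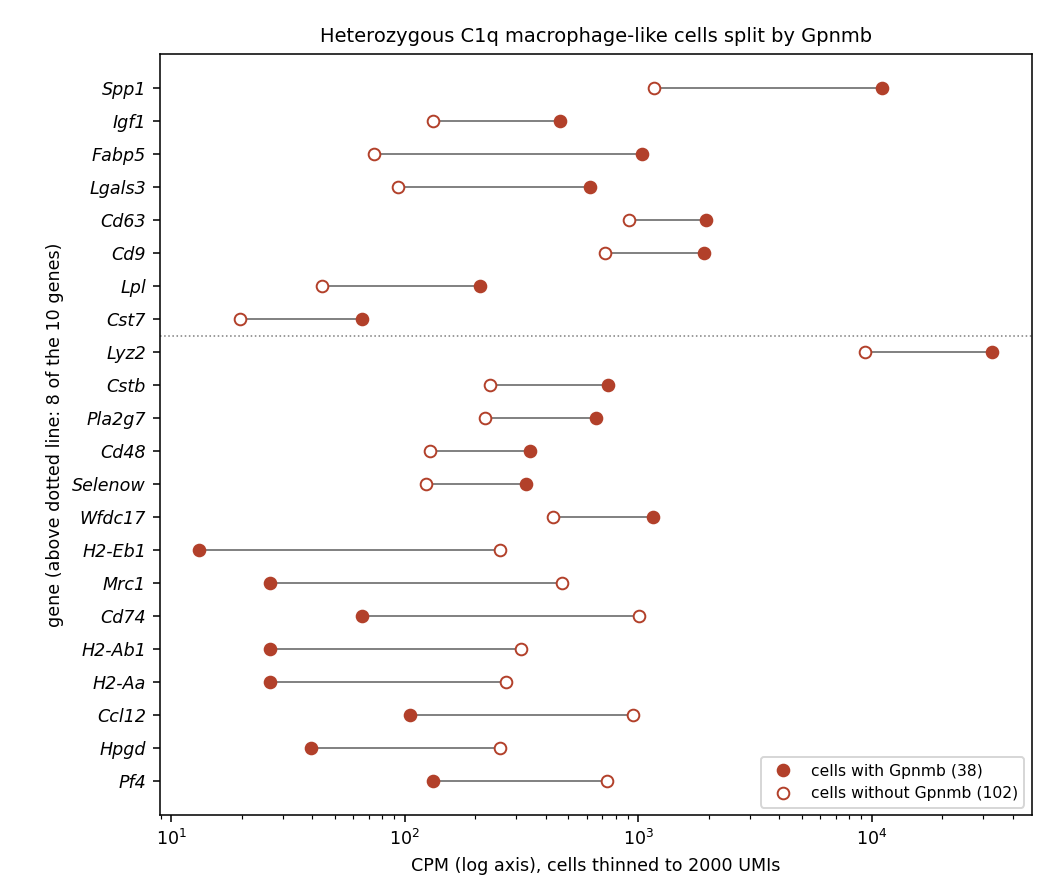
CPM (log axis) of 8 of the other genes of the set (above the dotted line) and of the 6 leading higher and 8 leading lower genes outside the set, in heterozygous C1q macrophage-like cells with Gpnmb (filled, 38 cells) and without it (open, 102 cells), thinned to 2000 UMIs. The 8 set genes lie higher in cells with Gpnmb (Spp1 11026 against 1167 CPM), Cst7 on only 5 against 4 UMIs, while Mrc1 lies lower (26.3 against 471 CPM). Of 740 genes with at least 50 thinned UMIs, 8.11% lay above 1.5-fold and 20.9% below it.

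In the wild-type library only 4 thinned C1q macrophage-like cells held Gpnmb and 38 did not. Spp1 was at 31000 CPM in the cells with Gpnmb (248 UMIs, 3 of 4 cells) and 118 CPM in those without it (9 UMIs, 6 of 38 cells), and Lyz2 at 44625 CPM (with Gpnmb) and 9645 CPM (without). Fth1 was at 17250 CPM (with Gpnmb, 138 UMIs) and 16947 CPM (without), a log2 ratio of 0.03 (-0.24 to 0.28). Igf1 was at 125 CPM (with Gpnmb) and 132 CPM (without) and Lgals3 at 125 CPM (with Gpnmb) and 158 CPM (without), each resting on 1 UMI in the cells with Gpnmb, so a difference was not detectable at this depth.

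Sex marks divided the wild-type cells of the cluster. Of the 145 heterozygous cells, 141 held Xist and no Y-linked UMI and 4 held neither. Of the 46 wild-type cells, 7 held Xist alone, 21 Y-linked transcripts alone, 1 both and 17 neither. Gpnmb was at 855 CPM in Xist-marked heterozygous cells, against 386 CPM (20 UMIs in 2 cells) in Xist-marked wild-type cells. Y-marked wild-type cells held Gpnmb at 63.5 CPM (13 UMIs in 1 cell). Restricted to Xist-marked cells, the log2 ratio of Gpnmb was 1.15 and that of Igf1 -0.16. The part of sex mark or of donor and host origin in the ratios was not tested.

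Other genes of the programme were read from lists of its parts, chosen with earlier results of these data known. Of 23 measured disease-associated microglia genes outside the 10, 8 were above 1.5-fold and 0 below in heterozygous phagocytes, against 2.36% and 0.812% of all genes measured. Their median log2 ratio was 0.37, against -0.02 for all genes measured. These were Apoe, Trem2, Axl, Ctsb, Ctsd, Timp2, Ank and Cadm1. Apoe, a lipid carrier, was at 23775 CPM in heterozygous and 7444 CPM in wild-type phagocytes (log2 ratio 1.68). Axl, a receptor for apoptotic cells, was at 84.9 CPM (heterozygous) and 42.1 CPM (wild type), a log2 ratio of 1.01, and Ctsd, a lysosomal protease, at 4244 CPM (heterozygous) and 2167 CPM (wild type), a log2 ratio of 0.97. In the C1q macrophage-like cluster alone, Axl was at 199 CPM (heterozygous) and 209 CPM (wild type). Apoe there was at 73161 CPM (heterozygous) and 56989 CPM (wild type), a log2 ratio of 0.36. Of 23 genes there, 7 were above and 2, Ccl3 and Ccl4, below the fold, against 8.51% and 6.2% of all genes measured there. In Adamts1-P2ry12 microglia-like cells 1 of 24 was above (4.55% of all genes), and in Syngr1-Klk8 ones 0 of 21 (4.0%). Among monocyte-like cells, 0 of 18 were above in Cd300e-Fabp4 (2.21%), 2 of 21 in classical (2.88%) and 4 of 21 in Ace-Ear2 cells (6.23%). Border-associated macrophage-like cells had 4 of 19 above (7.46%). Below the fold was 1 gene in Ace-Ear2 cells (5.35%) and 0 in the others (2.08% to 8.22%).

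Partners of the 10 genes mostly lay within the fold in phagocytes, as did most genes measured there. Of 5540 genes, 2.36% were above it and 0.812% below. Lists this short cannot set 0 or 1 gene apart from these shares, so nothing particular to the partners is read from the counts. Of 8 measured receptors of osteopontin and galectin-3, Trem2 alone was above the fold, at 990 CPM in heterozygous and 593 CPM in wild-type cells (log2 ratio 0.74). None of the 3 measured leukocyte integrins passed, although Itgb2, the beta chain that pairs with Itgax, was lower at -0.30 and Itgal at -0.43. The only measured gene of the Igf1 receptor and binding proteins was Igfbp4, at 0.40. Among the lipid genes, the scavenger receptor Msr1 was above the fold (0.65). Of 8 cathepsins and cystatins 0 passed, with Cst3 at -0.04 and Ctss at 0.34. Of 11 other tetraspanins, Tspan4 was above (0.64), and of 12 homeostatic microglia genes, Fcrls was (0.69). Of the Mitf and Tfe factors, Tfe3 (0.36) and Tfeb (-0.23) were measured and neither passed.

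Across 9 classes with at least 50 cells in each library, giving 18 class-by-library levels, Gpnmb was most like Spp1 among the 10 (Pearson r of log2(CPM + 10) 0.93), then Igf1 (0.88). Lgals3 (-0.44), Fabp5 (-0.08) and Itgax (-0.02) did not follow it. Among 8694 other genes the closest to Gpnmb were March8 and Apoe (0.80 each), and Ang, Rnase4 and Efemp2 (0.77 each). The closest to Spp1 were Apoe (0.88), Ang (0.87), and March8, Mgmt and Ly86 (0.86 each). These classes leave out the C1q macrophage-like cluster, which had 46 wild-type cells. With classes of at least 40 cells, added after the data were seen, it entered, and the closest were Itsn1 (0.88) and Apoe (0.86) to Gpnmb and Apoe (0.93) and Bst2 (0.91) to Spp1. Among the 10, Igf1 (0.94) then stood beside Spp1 (0.93) in likeness to Gpnmb, and Fabp5 came to 0.25. The levels share 2 libraries and differ in depth between classes, so the r values are descriptions. Gpnmb was at or near the floor in several of these classes. It had 0 heterozygous and 2 wild-type UMIs in Cd300e-Fabp4 cells, and 0 and 1 UMIs in an unnamed cluster led by Elane and Prtn3. Its r values therefore rest mainly on the remaining classes.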

How the data were processed

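Raw UMI counts per gene and cell barcode were used as deposited, per the file headers not normalized, from 1 Cx3cr1 heterozygous and 1 wild-type library made with 10x Genomics 3′ chemistry (v3.1), per the labels' protocols. The authors used Cell Ranger 4.0 and mm10, per the submitters' processing notes, while the file headers name Cell Ranger 5.0.0. The heterozygous library held 1837 barcodes and 17828344 UMIs and the wild-type library 2359 barcodes and 22062823 UMIs.

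A cell was kept at 500 genes or more with mitochondrial UMIs under 10% (81.1% of heterozygous and 82.6% of wild-type barcodes). Scrublet (scanpy 1.11.5) called 0 doublets, with thresholds (0.0885 heterozygous, 0.128 wild type) above the highest scores (0.0765 heterozygous, 0.0756 wild type), so doublets were not removed. Both libraries were clustered together without integration (counts scaled to 10000 per cell, 2000 variable genes, 30 principal components, 15 neighbours, Leiden in igraph 0.11.9, resolution 0.5, seed 0), leaving out the 10 genes and sex-marker genes. A cluster was named from fixed marker lists when at least 2 markers were among its 10 leading genes and at least 3 were 1.5-fold higher and in at least 10% of cells, a scoring rule set after the data were seen. Of 19 clusters, 2 stayed unnamed.

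UMIs were summed per library and class as CPM with exact Poisson intervals. Ratios are heterozygous over wild type with exact conditional binomial intervals, and shares have Clopper-Pearson intervals, all at 95%. A gene was measured with at least 50 UMIs over both libraries and a mean of 20 CPM. Co-detection was counted after thinning each cell to 2000 UMIs. Cells with fewer UMIs were left out, so thinned shares describe the deeper cells of each class. Of phagocytes, 609 of 699 heterozygous and 855 of 1028 wild-type cells remained. Of Syngr1-Klk8 microglia-like cells, 85 of 115 heterozygous and 115 of 179 wild-type cells remained. The computation of intervals was tested on simulated data. The 10 genes and all lists were chosen with earlier results of these data known. Named genes were the 10, up to 3 genes per list with the largest ratio either way beyond 1.5-fold (or the 2 most abundant), and the 5 most alike to Gpnmb and to Spp1. A result that this rule takes is not reported here. Gene positions come from GENCODE M21, in which 32158 of 32285 listed identifiers were found. Alternatives covered the cell filter, scaling (TMM and RLE, edgeR 4.0.16 in R 4.3.3), weighting, depth, clustering, shared barcodes and count minimums.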

Additional observations from a re-analysis of the deposited data

Results flagged for a closer look

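Lpl and Cst7 differed in direction between classes. Lpl was higher in the heterozygous library in Adamts1-P2ry12 microglia-like cells, with a log2 ratio of 1.13 (69.2 CPM heterozygous, 31.6 CPM wild type), and lower in Cd300e-Fabp4 patrolling monocyte-like cells, with -0.88 (23.6 CPM heterozygous, 43.4 CPM wild type). Cst7 was higher in the heterozygous library in Adamts1-P2ry12 microglia-like cells, with 0.98 (108 CPM heterozygous, 55.1 CPM wild type), and lower in Syngr1-Klk8 microglia-like cells, with -0.89 (102 CPM heterozygous, 189 CPM wild type). With 1 library per genotype, the difference between classes was not tested in either case. The 5 richest cells held 88.2% of the heterozygous Cst7 UMIs in the Adamts1-P2ry12 cluster.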

How the results depend on the processing

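No paired analysis was possible because each genotype had 1 library. For the same reason no library could be left out. In phagocytes the Gpnmb log2 ratio ranged from 2.66 (equal class shares) to 4.80 and the Spp1 ratio from 1.02 to 4.07 over 17 alternatives, with no change of direction. In C1q macrophage-like cells Gpnmb ranged from 1.15 to 4.54, Fabp5 from 1.03 to 4.22 and Spp1 from 0.03 to 5.94 over 14 alternatives. With Xist-marked cells only, an alternative added after the data were seen, Cd63 in phagocytes turned to -0.064 and Igf1 in C1q macrophage-like cells to -0.16, and 2 of the 10 genes in phagocytes and 2 in C1q macrophage-like cells lay below the fold, against 0 and 0. Of all genes, 12.7% and 18.8% then lay below it. Also added then, leaving out the 5 richest cells of each gene put 8 genes above the fold in C1q macrophage-like cells, against 4, but 37.8% of all genes then lay above it, 5 cells being 3.45% of heterozygous cells there, against 10.9% of wild-type ones. In those cells 1 gene lay below the fold with the 10 genes kept in the clustering, with all lists left out of it, and with the stricter cell filter, where 5.54%, 7.09% and 6.82% of all genes did. The share of genes above the fold there was 3.73% at a minimum of 200 UMIs, and the share below was 10.3% at 10 UMIs and 2.71% at 200 UMIs. In wild-type cells of this cluster, the co-detection of Gpnmb and Fabp5 was 15 times the product at 1000 UMIs (2 of 45 cells with both), against 5.25 at 2000 UMIs (2 of 42 cells), and that of Gpnmb and Lgals3 was 0.0 at 1000 UMIs and 2.65 without thinning, against 1.31. The cause of these changes was not tested. The 46 wild-type C1q macrophage-like cells limit every statement on that cluster.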

Other observations

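Mast cell or basophil-like cells, 14 in each library, held Cd63 at 1441 CPM in heterozygous and 2090 CPM in wild-type cells and Cst7 at 159 CPM (heterozygous) and 310 CPM (wild type), with Gpnmb at 3.87 CPM (heterozygous) and 0 CPM (wild type). Astrocyte-like cells (10 heterozygous and 7 wild-type cells) held Fabp5 at 534 CPM (heterozygous) and 1100 CPM (wild type) with Gpnmb and Spp1 at 0 in both libraries. With the 10 genes kept among those clustered, the C1q macrophage-like cluster held 152 heterozygous and 54 wild-type cells, and its Spp1 level was 7835 CPM in heterozygous and 7684 CPM in wild-type cells.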
